A study of Zea mays with 36 samples.

Results

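The change of the nitrate response of maize seedling roots between 24 h and 30 min was measured, as the nitrate over control log2 ratio after 24 h minus that after 30 min. All 36 scans of the series entered, and they made up 12 replicates, 6 at each time. In every replicate, roots of the inbred line B73 (Zea mays, the line of the maize reference genome) in 5 mM calcium nitrate were set against control roots in fresh 5 mM calcium sulfate. The 24 h plants were moved to these solutions on day 10 and the 30 min plants on day 11, after growth on germination paper in 5 mM calcium sulfate that all groups shared. The nitrate solution held no added sulfate, so that the gain of nitrate and the loss of sulfate cannot be told apart. The labels describe the 12 replications as separate biological replications, and numbers do not pair plants of one time with plants of the other. RNA came from whole root tissue, in which fewer cells of a type and less RNA per cell cannot be told apart. Both samples of a replicate were hybridised on 1 spotted cDNA array with different dyes, and the dyes were swapped so that 3 replicates of each time had nitrate on Cy5 and 3 had it on Cy3.

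Nitrate is both a nutrient and a signal for roots. In plants in general, its arrival quickly raises transcripts of its own transporters and of nitrate and nitrite reductase, which convert it to ammonium, along with enzymes that supply reductant. Some of these responses are transient, since the reduced nitrogen products feed back on uptake, while others build up over longer exposure. Which of these genes lie on the arrays could not be read, because almost all probes carry only the accession of a cDNA clone. Of 7688 probes, 3 had a name, and none of these names belonged to the lists searched for nitrate uptake and assimilation, the pentose phosphate pathway, sulfate assimilation, root markers or leaf markers. The labelled tissue was therefore not checked against markers, and the account below goes by clone accession.

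The fitted response, averaged over replicates, was wider after 24 h than after 30 min. Over all 7688 probes the fitted log2 ratios had an SD of 0.323 at 24 h and 0.160 at 30 min. Their interquartile range ran between -0.163 and 0.145 at 24 h, and between -0.0606 and 0.0546 at 30 min. The difference itself, 24 h minus 30 min, had a median of -0.009, an interquartile range of -0.180 to 0.152 and extremes of -1.87 and 3.63. The upper tail was thus longer than the lower one, while the middle stayed close to 0. Loess centres each scan, so these ratios are relative to the centre of the scan.

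Over single replicates a measure of the tails of the distribution passed the test, and a measure of its middle did not. The share of probes more than 2-fold from 1, less the fitted dye effect, averaged 2.58% ± 1.19 at 24 h and 0.982% ± 0.408 at 30 min (SD, n = 6 each; exact permutation test, two-sided, p = 0.00433). The SD over probes of a replicate's ratios, again less the dye effect, was lowest at 0.359, had a median of 0.406 and was highest at 0.4995 in the 24 h replicates. In the 30 min replicates it was lowest at 0.226, had a median of 0.312 and was highest at 0.422, so that the groups overlapped. Before the subtraction the SD ran between 0.5002 and 0.655 at 24 h and between 0.215 and 0.486 at 30 min, without overlap. Those values still contain the dye effect. The subtraction raised the SD of 30 min replicates 1, 2 and 4, from 0.356, 0.2896 and 0.215 to 0.422, 0.402 and 0.316. It lowered that of all other replicates. The part of the common dye effect in the overlap was not tested. The means of the SD less the dye effect were 0.419 ± 0.054 at 24 h and 0.329 ± 0.072 at 30 min (SD, n = 6 each), a difference of 0.0892 (exact permutation test, two-sided, p = 0.0368). The interquartile range of a replicate, also less the dye effect and added after the values had been seen, ran between 0.377 and 0.640 at 24 h and between 0.253 and 0.635 at 30 min. Its means were 0.457 ± 0.096 at 24 h and 0.421 ± 0.172 at 30 min (SD, n = 6 each; exact permutation test, two-sided, p = 0.673), and 30 min replicates 1 and 2 had 0.631 and 0.635, above 5 of the 6 replicates at 24 h. The SD of both these replicates had risen with the subtraction, and their interquartile range before it was not compared. Adjusted over the 3 measures the p-values of the exact permutation tests were 0.013 for the share, 0.0552 for the SD and 0.673 for the interquartile range, where 6 replicates against 6 can reach an unadjusted 0.00216. Only the share over 2-fold thus passed after adjustment. Of the 3 measures only the SD was planned, and the share was not run in the other settings. The unadjusted p of the SD was also above 0.05 without 30 min replicate 1, 2, 3 or 4, with differences of 0.0608 to 0.0853.

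Replicates at 24 h also shared more of their pattern. Less the dye effect, pairs of 24 h replicates correlated across probes with a median r of 0.523 (range 0.363 to 0.667, 15 pairs). Pairs of 30 min replicates had a median r of 0.054 (range -0.553 to 0.641, 15 pairs), and pairs of a 24 h and a 30 min replicate 0.130 (range -0.352 to 0.472, 36 pairs). These are correlations over probes that share arrays, and no test was made of them. The Cy5 over Cy3 dye pattern differed between 30 min replicates in a way that these values contain. Its r with the other 24 h arrays was between -0.142 and 0.121 for 30 min replicates 1, 2 and 4, between 0.617 and 0.754 for 30 min replicates 3, 5 and 6, and between 0.451 and 0.616 within the 24 h replicates. Its part in these correlations was not tested. Counts of probes with separate dye effects for these sets of replicates are given below, under the dependence on the processing.

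**Figure D1:**
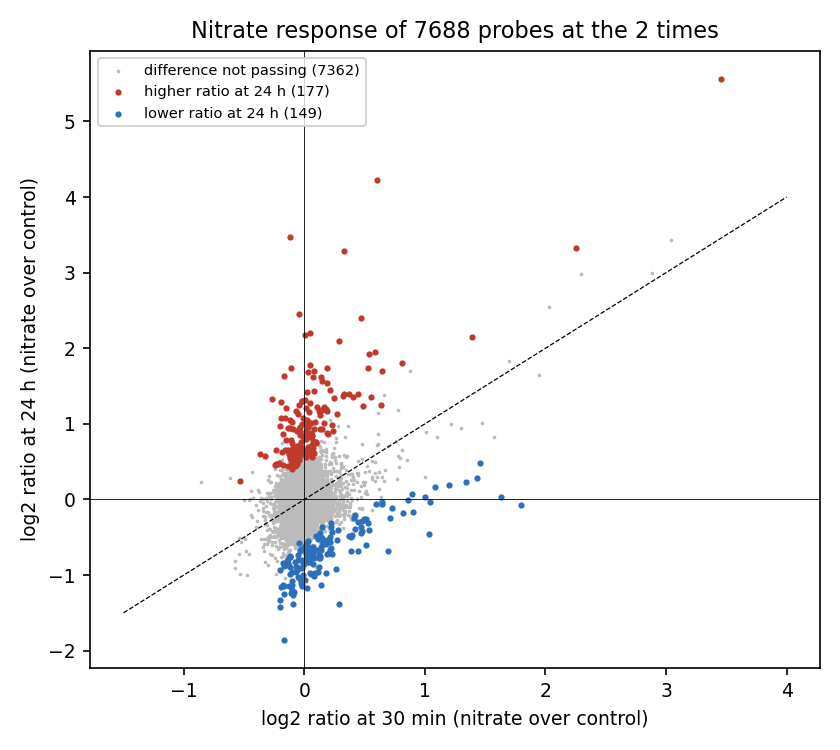
Fitted log2 ratio of nitrate over control at 24 h (vertical axis) against that at 30 min (horizontal axis) for 7688 probes, with colours for the probes that passed in the difference and a dashed line of equal ratios. The 177 probes with a higher ratio at 24 h mostly stand above a 30 min ratio near 0, and the 149 with a lower ratio at 24 h fall into a group below 0 at 24 h and a group along the right side that was raised at 30 min.

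The difference passed for 326 of 7688 probes (4.24%; limma, Benjamini-Hochberg adjusted p under 0.05). The ratio was higher at 24 h for 177 (2.3%) and lower at 24 h for 149 (1.94%). These counts were 244 and 243 where each time had its own dye effect, 243 and 245 with the replicate number as a block, and 236 and 229 without 30 min replicate 1. The median difference was 0.839 for the probes with a higher ratio and -0.852 for those with a lower one, against -0.009 over all probes. A difference of more than 2-fold was reached by 60 higher and 39 lower probes that passed, and one of more than 4-fold by 7 higher and 0 lower probes. The standard error of a difference had a median of 0.169, so that the 95% interval typically reached 0.352 to either side. The smallest difference that passed was 0.492 in size, and the largest that did not was 1.09. In simulated arrays 26.9% of differences of 0.5, 83.6% of differences of 1 and 98.5% of differences of 2 were recovered. A shift of 1.41-fold, which is 0.5 on the log2 scale, was thus mostly not detected in these simulated arrays. They shared 1 dye effect and took the size of their noise from the main model, drawn independently for each probe. Other dye terms and patterns shared by many probes of an array were thus not covered.

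The 2 probes with the most positive difference were BG874013 and DV489508, both cDNA clones without a gene name here. The log2 ratio of BG874013 was lowest at 3.18, had a median of 4.06 and was highest at 5.80 in the 24 h replicates, and was lowest at -0.53, had a median of 0.79 and was highest at 0.98 in the 30 min replicates. The ranges did not overlap, and 30 min replicate 6 was the only one of the 12 below 0. The means were 4.23 ± 0.99 at 24 h and 0.60 ± 0.57 at 30 min (SD, n = 6 each). The difference was 3.63 ± 0.27 (SE; limma, adjusted p = 7.84e-08), so that the ratio was 12.4-fold higher at 24 h (95% interval 8.36 to 18.3). Its spot was saturated in the High scan of 2 of 6 replicates at 24 h and 0 of 6 at 30 min. The difference was 3.81 where saturated spots were left out of a scan.

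For DV489508 the log2 ratio was lowest at 2.60, had a median of 3.44 and was highest at 4.58 at 24 h, and was lowest at -0.38, had a median of -0.11 and was highest at 0.09 at 30 min. All 24 h replicates were far above all 30 min replicates, which lay close to 0. The means were 3.47 ± 0.76 at 24 h and -0.12 ± 0.17 at 30 min (SD, n = 6 each). The difference was 3.59 ± 0.25 (SE; limma, adjusted p = 3.59e-08), a ratio 12.02-fold higher at 24 h (95% interval 8.41 to 17.2).

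The most negative differences were those of DV492356 and BM076073, which reached them by different courses. The log2 ratio of DV492356 was lowest at -0.53, had a median of -0.18 and was highest at 0.51 at 24 h, and was lowest at 1.36, had a median of 1.57 and was highest at 2.74 at 30 min. Its 24 h replicates scattered around 0 while all 30 min replicates were raised, and the ranges did not overlap. The difference was -1.87 ± 0.19 (SE; limma, adjusted p = 3.61e-06), and the ratio at 24 h was 0.274 of that at 30 min (95% interval 0.207 to 0.362). BM076073 had a log2 ratio lowest at -2.40, with a median of -1.94 and highest at -1.07 at 24 h, and lowest at -0.51, with a median of -0.07 and highest at 0.004 at 30 min. Here the 24 h replicates were low and the 30 min replicates lay near 0, again without overlap. The difference was -1.69 ± 0.18 (SE; limma, adjusted p = 4.48e-06). These 4 probes were chosen for the size of the difference.

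**Figure D2:**
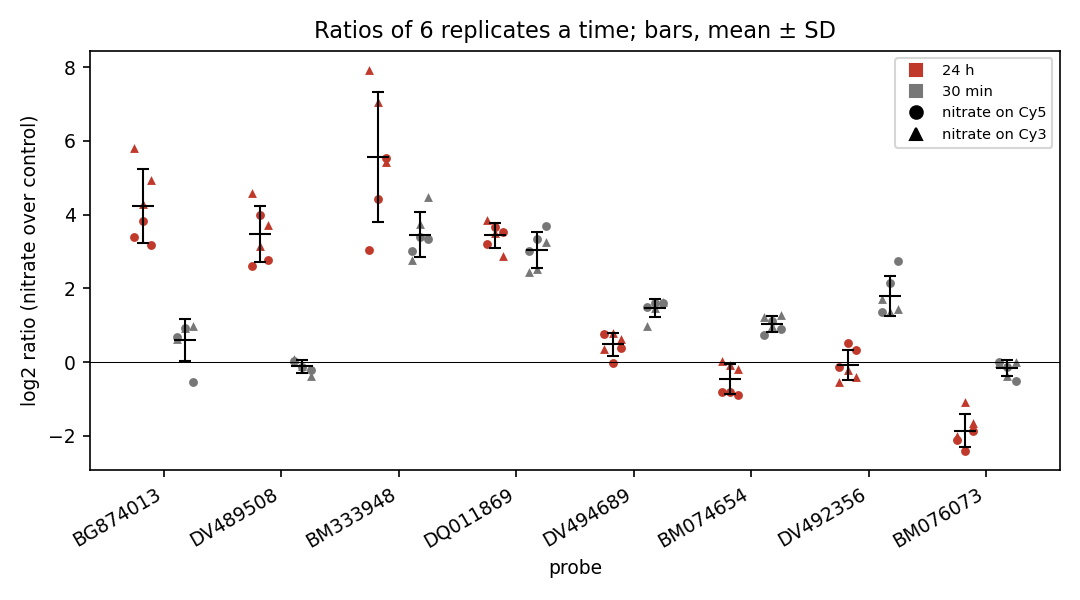
Log2 ratio of nitrate over control (vertical axis) in each replicate of 8 probes, 24 h left of 30 min, with circles where nitrate was on Cy5, triangles where it was on Cy3, and bars for the mean ± SD of 6 replicates. The 24 h and 30 min replicates overlap for BM333948 and DQ011869 and stand apart for the other 6 probes.

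The calls at the single times divide the 326 probes into courses, whose medians are partly set by the tests behind these calls. At 24 h 1127 probes passed (14.7%), 562 higher (7.31%) and 565 lower (7.35%) in nitrate. At 30 min 88 passed (1.14%), 82 higher (1.07%) and 6 lower (0.078%). Of the 326, 301 (92.3%) passed at 24 h and 37 (11.3%) at 30 min. The largest course was late and upward, with 166 probes higher at 24 h that did not pass at 30 min and had medians of 0.850 at 24 h and -0.022 at 30 min. Next came 118 probes lower at 24 h that did not pass at 30 min, with medians of -0.782 and 0.030.

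An early and transient course was shown by 20 probes, higher at 30 min and not passing at 24 h, with medians of -0.044 at 24 h and 0.877 at 30 min. DV492356 had the largest difference among them. A rise that went further was shown by 10 probes, with medians of 1.94 at 24 h and 0.641 at 30 min. A rise still present but smaller at 24 h was shown by 1 probe, DV494689, with a log2 ratio lowest at -0.04, median 0.51 and highest 0.79 at 24 h, and lowest at 0.99, median 1.54 and highest 1.62 at 30 min. Its replicates did not overlap, and its difference was -0.98 ± 0.17 (SE; limma, adjusted p = 0.0013).

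Opposite directions at the 2 times were called for 6 probes, all of them lower at 24 h and higher at 30 min. BM074654 had the largest difference of these. Its log2 ratio was lowest at -0.89, had a median of -0.49 and was highest at 0.02 at 24 h, and was lowest at 0.72, had a median of 1.05 and was highest at 1.29 at 30 min. The replicates did not overlap, although 1 of 6 at 24 h lay just above 0, and where nitrate was on Cy3 the 24 h mean was only -0.08, against -0.83 where it was on Cy5. The difference was -1.49 ± 0.15 (SE; limma, adjusted p = 1.92e-06). The other 5, named here after their values were seen, were AW053042, BG841152, BM079966, BM267942 and DV493153. AW053042 had the largest difference of these 5, with fitted log2 ratios of -0.68 at 24 h and 0.69 at 30 min and a difference of -1.38 ± 0.15 (SE; limma, adjusted p = 9.5e-06). The other 4 had fitted ratios between -0.42 and -0.37 at 24 h and between 0.42 and 0.53 at 30 min.

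A further 5 probes passed in the difference without passing at either time, and were named after their values were seen. DV489510 had a fitted log2 ratio of 0.25 at 24 h and -0.53 at 30 min, and a difference of 0.78 ± 0.20 (SE; limma, adjusted p = 0.0261). BM073115, DV492353, DV943444 and DY576228 had the reverse pattern, with ratios between -0.29 and -0.21 at 24 h, between 0.41 and 0.51 at 30 min and differences between -0.77 and -0.63.

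**Figure D3:**
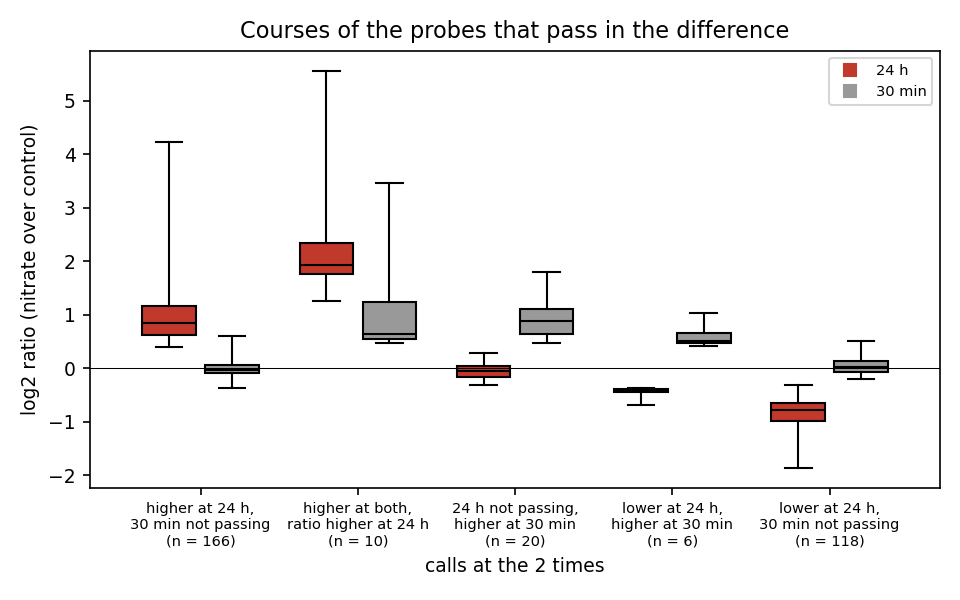
Fitted log2 ratios of nitrate over control (vertical axis) for the probes that passed in the difference, by their calls at the 2 times, with a box for 24 h left of a box for 30 min. Lines in the boxes are medians, boxes span the quartiles and whiskers reach the lowest and highest probe. The 166 late risers and 118 late fallers have 30 min boxes at 0, while the 20 transient probes have their 24 h box at 0.

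A call at 24 h without one at 30 min was in most cases not accompanied by a call in the difference. Of 1073 probes that passed at 24 h and not at 30 min, 284 (26.5%) passed in the difference and 789 (73.5%) did not. The share was 166 of 520 (31.9%) for probes higher and 118 of 553 (21.3%) for probes lower at 24 h. All 789 had a difference with the sign of their 24 h ratio, with a median size of 0.404, which is below the smallest difference that passed. The choice of a 24 h ratio that passed and a 30 min ratio that did not favours this sign, so the sign is no separate result. For these probes the data do not settle whether the response was late or had already been present at 30 min. Among the 82 probes higher at 30 min, 37 (45.1%) passed in the difference, 10 with a higher and 27 with a lower ratio at 24 h. The background in these comparisons was 4.24% of all probes, but calls at 24 h, calls at 30 min and calls in the difference come from the same values.

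Of the 82, 14 passed neither at 24 h nor in the difference, with medians of 0.252 at 24 h and 0.622 at 30 min. For these 14 the data do not settle whether the rise was transient. Another 31 were higher at both times and did not pass in the difference, with medians of 0.776 at 24 h and 0.790 at 30 min. DQ011869 had the highest mean ratio of these 31. Its log2 ratio was lowest at 2.88, had a median of 3.52 and was highest at 3.84 at 24 h, and was lowest at 2.45, had a median of 3.13 and was highest at 3.69 at 30 min. The ranges overlapped over most of their length. The difference was 0.40 ± 0.20 (SE; limma, adjusted p = 0.347), with a 95% interval from -0.02 to 0.81, so that a ratio up to 1.76-fold higher at 24 h lies within it.

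BM333948 had the highest ratio of all probes at both times and also passed in the difference. Its log2 ratio was lowest at 3.03, had a median of 5.48 and was highest at 7.93 at 24 h, and was lowest at 2.78, had a median of 3.37 and was highest at 4.47 at 30 min. The ranges overlapped, and the 24 h replicates were spread widely. The difference was 2.11 ± 0.45 (SE; limma, adjusted p = 0.00702), a ratio 4.30-fold higher at 24 h (95% interval 2.25 to 8.23). Its spot was saturated in the High scan of 2 of 6 replicates at 24 h and 0 of 6 at 30 min. The difference was 2.69 from only the brightest unsaturated scan of every spot and 2.46 where saturated spots were left out of a scan. It was 1.08 where nitrate was on Cy5 and 3.13 where nitrate was on Cy3. The call was lost from High scans alone (2.02; adjusted p = 0.202), without a dye effect (2.11; adjusted p = 0.111), with only 30 min replicates 5 and 6 (1.65; adjusted p = 0.276) and with only 30 min replicates 3, 5 and 6 (2.03; adjusted p = 0.0719), all by limma.

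A view without a model compares the ranges of the ratios. The ratios of the 6 replicates at 24 h and the 6 at 30 min did not overlap for 154 of 7688 probes (2%), with 24 h above 30 min for 93 (1.21%) and below it for 61 (0.793%). Of the 326 probes that passed, 138 (42.3%) had separate ranges, which were 83 of 177 with a higher ratio at 24 h (46.9%) and 55 of 149 with a lower one (36.9%). Among the late risers it was 76 of 166, among the late fallers 38 of 118, and among the transient probes 11 of 20. Of the 154, 16 did not pass in the difference. The ranges and the calls come from the same ratios, so separate ranges among the probes that passed were favoured by the choice.

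A shift of the ratio can come from the nitrate sample, the control sample or both, and the levels of both channels were compared between the times to split it. Levels were scaled between arrays so that all arrays had the same distribution of brightness. For each probe the change of the nitrate level minus the change of the control level equals the difference of the ratios. Levels of the 2 times come from separate arrays, so that time and array set cannot be told apart in them, whereas the ratios are taken within arrays.

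The nitrate level differed between the times for 252 of 7688 probes (3.28%; limma, adjusted p under 0.05), 123 higher (1.6%) and 129 lower (1.68%) at 24 h. The control level differed for 24 (0.312%), 10 higher (0.13%) and 14 lower (0.182%). The median standard error was alike, 0.190 for the change of the nitrate level and 0.196 for that of the control level. At an unadjusted p under 0.05 the counts were 1222 for the nitrate level and 664 for the control level. The difference between these counts was not tested, and it moved widely with the 30 min replicates used. The counts were 477 and 86 with only 30 min replicates 1 to 4, 370 and 187 with only 30 min replicates 5 and 6, and 132 and 5 with only 30 min replicates 3, 5 and 6, while 60 probes passed for the control level without 24 h replicate 1 and 11 to 14 without 24 h replicate 2, 3 or 4 or 30 min replicate 2 or 3.

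Most of the shifted ratios went with a larger change of the nitrate level. Among the 177 probes with a higher ratio at 24 h the median change was 0.693 for the nitrate level and -0.144 for the control level, and the nitrate change was the larger in size for 144 (81.4%). Among the 149 with a lower ratio it was -0.711 for the nitrate level and 0.184 for the control level, with the nitrate change larger for 115 (77.2%). Over all probes the nitrate change was larger for 55.4%. The rule that picked these probes used the difference of both changes, so these values describe them and were not tested. Of the 326, 131 (40.2%) also passed for the nitrate level, 75 of 177 upward and 56 of 149 downward, each in the direction of its ratio.

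The control level passed for 4 of the 326 (1.23%), named here after their values were seen. For BG841432 and DV489915, whose ratio was lower at 24 h, the control level was higher at 24 h by 1.07 and 1.04. For BM334491 the control level fell by 1.40 while the ratio was higher at 24 h, 3.33 against 2.25 at 30 min. DV492356 was the only probe of the 326 that passed for both levels. Its nitrate level changed by -3.09 ± 0.33 (SE; limma, adjusted p = 0.000153) and its control level by -1.22 ± 0.23 (SE; limma, adjusted p = 0.0394), so that the control level was also lower at 24 h and the fall of the ratio is smaller than that of the nitrate level.

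The other named probes differed in this split. For BG874013 the nitrate level was higher at 24 h by 3.35 ± 0.27 (SE; limma, adjusted p = 2.64e-05), and the control change of -0.28 ± 0.25 did not pass (adjusted p = 0.821). For DV489508 the nitrate change was 4.11 ± 0.22 (SE; limma, adjusted p = 4.24e-07) and the control change 0.52 ± 0.17 (adjusted p = 0.326). BM074654 and DV494689 had lower nitrate levels at 24 h, by -1.89 ± 0.15 (SE; limma, adjusted p = 2.64e-05) and -1.10 ± 0.20 (adjusted p = 0.00781), and their control changes of -0.40 and -0.13 did not pass. For BM076073 neither level passed alone, at -0.71 ± 0.29 (SE; limma, adjusted p = 0.249) for nitrate and 0.98 ± 0.25 (adjusted p = 0.14) for control. The larger change was that of the control level, but both its levels were uneven among the 30 min replicates. Its control level was -1.61 in 30 min replicate 5 and also low in 6, against -0.218 to -0.166 in 1 to 4. Its nitrate level was -1.61 and -1.51 in 30 min replicates 5 and 6, against -0.585 to -0.161 in 1 to 4. How far the larger control change rests on 30 min replicates 5 and 6 was not tested. For BM333948 likewise neither level passed, with 0.96 ± 0.25 (SE; limma, adjusted p = 0.0512) for nitrate and -1.14 ± 0.63 (adjusted p = 0.661) for control.

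DQ011869, whose ratio did not pass in the difference, had lower levels in both channels at 24 h. The nitrate level changed by -1.65 ± 0.19 (SE; limma, adjusted p = 0.00029) and the control level by -2.05 ± 0.18 (SE; limma, adjusted p = 0.000103). Both levels passed for 16 of the 252 probes that passed for the nitrate level. Time and array set cannot be told apart in such common changes.

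**Figure D4:**
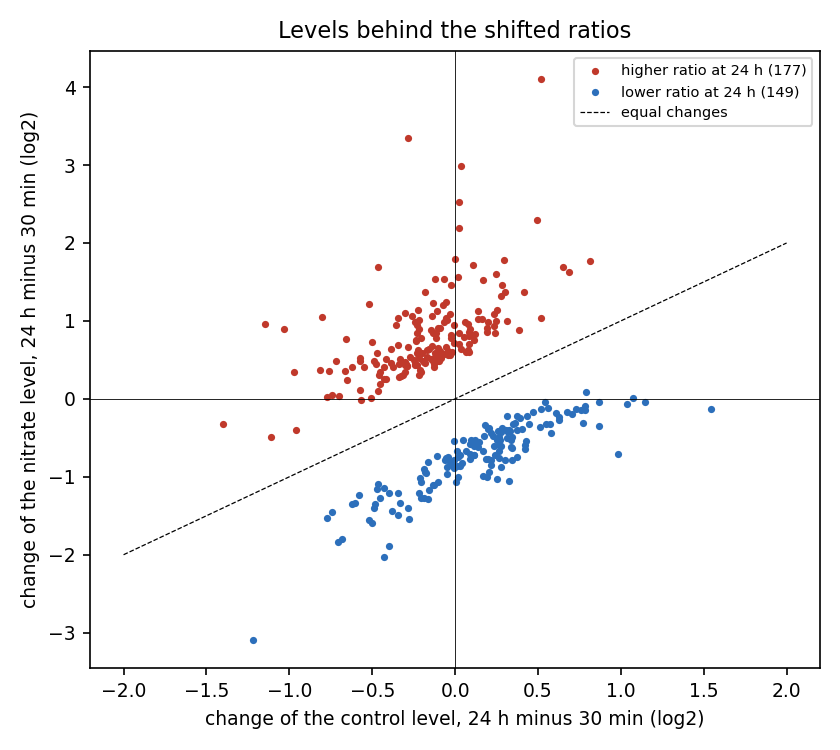
Change of the nitrate level (vertical axis) against change of the control level (horizontal axis), both 24 h minus 30 min in log2 units, for the 326 probes that passed in the difference, with a dashed line where both changes are equal and the ratio does not shift. The 177 probes with a higher ratio at 24 h lie above that line and the 149 with a lower one below it, and DV492356 is the lowest point, at -1.22 for control and -3.09 for nitrate.

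The shift was also measured separately in each dye orientation, from 3 replicates of each time. Over all 7688 probes the differences in both orientations correlated with r = 0.054, and 37.0% of probes had one sign in both. The dye effect of each time, taken as its mean Cy5 over Cy3 log2 ratio, had an SD over probes of 0.398 at 24 h and 0.198 at 30 min. By construction, the gap between the orientations is set by the change of this dye effect between the times. Among the 326 probes all 326 had one sign in both orientations, and their r was 0.866. The test of the difference rests on the mean over both orientations and on their spread, so this agreement was favoured by the choice. The medians were 0.928 with nitrate on Cy5 and 0.826 with nitrate on Cy3 for the higher probes, and -0.902 and -0.753 for the lower ones.

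**Figure D5:**
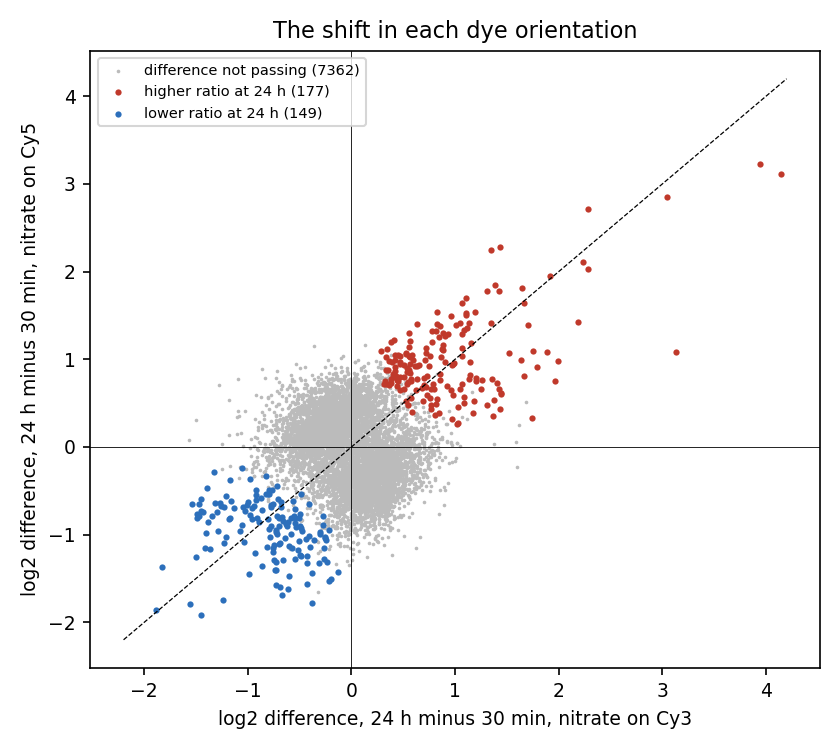
Log2 difference, 24 h minus 30 min, with nitrate on Cy5 (vertical axis) against that with nitrate on Cy3 (horizontal axis) for 7688 probes, each from 3 replicates of a time and orientation, with a dashed line of equal values. The probes that did not pass spread away from the line (r = 0.054 over all probes), and the 326 coloured probes lie where both differences have one sign.

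The shifts were compared between scan powers, brightness classes and repeated spots. The calls rest on the mean of the 3 scans, and of both spots where a probe has 2, so that agreement among them was favoured by the choice. All 326 had one sign in the High, the Medium and the Low scans, with medians of 0.808, 0.847 and 0.907 for the higher and -0.815, -0.864 and -0.890 for the lower probes. In 4 equal sets of probes ordered by brightness, dimmest first, 3.69%, 5.25%, 4.21% and 3.80% passed, and the difference had r = 0.0093 with brightness across probes. Of the 200 probes with 2 spots, 15 passed, against 326 of 7688 (4.24%) over all probes. Both spots had one sign for all 15, against 74% of the 200. Among the 15 the smaller of the 2 spots was as low as 0.036 in size. The difference correlated between the spots with r = 0.733 over the 200 probes and 0.565 without the 15. The median gap between the spots was 0.135 in size.

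The 3 named probes showed no shift that passed. AI665898, which the reference table pairs with the gene LOC100191184 (reticulon among its synonyms, a family of membrane proteins that shape the endoplasmic reticulum), had means of -0.03 ± 0.48 at 24 h and 0.03 ± 0.36 at 30 min (SD, n = 6 each). Its difference was -0.05 ± 0.17 (SE; limma, adjusted p = 0.918), with a 95% interval from -0.41 to 0.30. The probe named rf2e3 in the files had 0.14 ± 0.45 at 24 h and -0.02 ± 0.29 at 30 min (SD, n = 6 each), a difference of 0.16 ± 0.16 (SE; limma, adjusted p = 0.678) with a 95% interval from -0.17 to 0.50. The probe named colim15a had a difference of 0.03 ± 0.22 (SE; limma, adjusted p = 0.973) with a 95% interval from -0.44 to 0.49, and in the High scan its spot was at background for 3 of 6 replicates at 24 h and 0 of 6 at 30 min. With the deposited values the SE of its difference was 0.789, so that its interval bounds the shift poorly.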

How the data were processed

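Spot intensity (foreground and local background, mean and median, both channels, up to 65535) was deposited for 36 scans, per the file headers. The deposited normalized values are natural log values, found from their agreement with the intensities; how they were normalized, and which scanner and software were used, is not given in the sources used here. In R 4.3.3 with limma 3.58.1, foreground means were corrected by normexp (offset 50) on the median background, normalized by loess within each scan, turned to nitrate over control by the labelled dyes, and averaged over the 3 scans of a replicate and over spots of a probe (7888 spots, 7688 probes). The model held the ratio at 24 h, the ratio at 30 min and 1 dye effect (9 residual degrees of freedom, 10.9 prior), and the contrast was 24 h minus 30 min. A probe passed at an adjusted p under 0.05 (Benjamini-Hochberg, all probes).

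Channel levels came from the loess values after scaling the mean brightness between arrays by quantiles, and each was fitted by limma with a dye effect. Per-replicate spread (3 measures) was compared by exact permutation over 6 and 6 replicates. The steps were tested on simulated arrays of 7688 probes, where 4.79% of the calls in the difference were false. The simulated arrays shared 1 dye effect and drew their noise independently for each probe. Patterns shared by many probes of an array were not simulated, so this share need not hold for the real arrays. Saturated spots were kept. None of the probes named by rank was saturated in a Low scan or at background in a High scan. In High scans at 24 h, BG874013 and BM333948 were saturated in 2 of 6 replicates and DV489508 and DQ011869 in 1. In High scans at 30 min, DV492356 and DQ011869 were saturated in 1 of 6 replicates. The reference table (Zm-B73-REFERENCE-NAM-5.0) named 1 probe through a synonym and 0 through symbols or RefSeq accessions, and 2 carried names in the files.

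Members and lists were chosen with earlier results of these data known. Probes were named if they had a gene name; otherwise the 2 most positive and 2 most negative differences that passed, the largest difference of each course, and the highest mean ratio among probes higher at both times without a difference. Deviations of same-numbered replicates of the 2 times correlated at -0.121 to 0.199. These few values cannot settle whether numbers pair them, and the model without pairs rests on the labels of separate replications. Alternatives covered background correction, normalization, scans, saturation, dye terms, weights, threshold, the deposited values, subsets of 30 min replicates and each replicate left out. The number of arrays limits the precision, and the counts also moved with the dye terms and the weights.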

Additional observations from a re-analysis of the deposited data

Results flagged for a closer look

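A single replicate stood far from the other 5 in 4 of 32 sets of 6 replicates, and chance alone flags about 1 set in 20. For BG874013 this was 30 min replicate 6, with a log2 ratio of -0.53 against 0.64 to 0.98. For DV494689 it was 30 min replicate 1, with 0.99 against 1.46 to 1.62. The dye pattern of 24 h replicate 2 correlated with the other 24 h arrays at 0.451, against 0.564 to 0.616 for the other 5. In the High scan of 24 h replicate 3, 30.4% of spots were saturated, against 4.48% to 9.24% in the other 5. Its Medium scan, which was not part of the search, had 21.9%, against 0.761% to 1.67% in the other 5. Without these 2 scans 354 probes passed in the difference and 1243 at 24 h, against 326 and 1127 with all scans.

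For 7 of the named probes the response differed between the times by the test of the difference (limma). The difference, 24 h minus 30 min, was 3.63 for BG874013, 3.59 for DV489508, 2.11 for BM333948, -0.98 for DV494689, -1.49 for BM074654, -1.87 for DV492356 and -1.69 for BM076073. Their adjusted p-values, in that order, were 7.84e-08, 3.59e-08, 0.00702, 0.0013, 1.92e-06, 3.61e-06 and 4.48e-06. The naming rule asked for large differences, so their size is no separate result.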

How the results depend on the processing

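Probes passing in the difference (326) numbered 642 with array weights, 182 from High scans alone, 137 without a dye effect, 173 at an adjusted p under 0.01, 197 and 130 with only 30 min replicates 1 to 4 or 5 to 6, and 748 or 637 with 3 dye effects, 1 for 24 h and 1 each for 30 min replicates 1 to 4 and 5 to 6, or 1, 2, 4 and 3, 5, 6. The last split and the use of 30 min replicates 3, 5 and 6 alone were chosen after seeing the data. With a separate dye effect for each time 487 passed (244 higher, 243 lower). Of the 326, 326 remained with the first of these dye splits, 322 with array weights and 174 from High scans alone. The deposited values gave 285, of which 279 were among the 326. At 24 h (1127) the counts were 514 without a dye effect, 1899 with array weights, 568 at 0.01, 2043 and 2044 with these dye splits, and 1720 and 1811 with only 30 min replicates 5 and 6 or 3, 5 and 6. At 30 min (88) they were 55 from High scans alone, 50 without a dye effect, and 39 and 46 with only replicates 1 to 4 or 5 and 6. With the replicate number as a block, 488 passed in the difference, 1876 at 24 h and 14 at 30 min, although 0 of 6 replicates correlated best with their own number. The nitrate level (252) gave 85 at 0.01, and 477 and 132 with only 30 min replicates 1 to 4 or 3, 5 and 6. The control level (24) gave 13 with foreground medians, 8 at 0.01, and 86, 187 and 5 with only 30 min replicates 1 to 4, 5 and 6, or 3, 5 and 6. Leaving out 1 replicate gave 243 to 465 in the difference (137 to 236 higher and 106 to 229 lower, with 229 without 30 min replicate 1), 755 to 1414 at 24 h, 58 to 105 at 30 min (58 without 30 min replicate 5), 167 to 272 for the nitrate level (167 without 30 min replicate 4) and 11 to 60 for the control level. The difference of the per-replicate spread (0.0892) was 0.0837 without background correction (exact permutation p = 0.0952), 0.0833 with foreground medians (p = 0.11) and 0.0946 with only 30 min replicates 1 to 4 (p = 0.0619), and 0.0608 to 0.111 with 1 replicate left out. No probe was removed by the filter on dim probes. A stricter threshold lowers a count by construction; for the other settings the cause was not tested. Of the 7 named differences that passed, 6 did so in all settings run, and BM333948 in all but 4.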

Other observations

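The arrays carried clones from differently named plates, which were grouped by name after their values had been seen. The share of probes that passed in the difference was 127 of 1652 (7.69%) on the plates named re-array V2, 31 of 884 (3.51%) on those named Wholeh V2, 165 of 5057 (3.26%) on those named stan and RS and 3 of 95 (3.16%) on the plate named rearray 21m V2. Single plates ran from 5.51% to 10.5% among the re-array V2 plates, from 2.41% to 4.75% among the Wholeh V2 plates and from 0.426% to 6.36% among the stan plates. At 24 h 20.5% of probes passed on the re-array V2 plates, 15.6% on the Wholeh V2 plates and 12.7% on the stan plates, and at 30 min 1.82%, 0.905% and 0.949%. The median standard error of the difference was 0.175, 0.163 and 0.168 on these plates. What the plate names stand for is not given in the sources used here, and no test was made.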
